A study of Rattus norvegicus with 6 samples.

Results

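The genes described are 3 abundant folding proteins of the endoplasmic reticulum (ER), Hspa5, Calr and P4hb, and 2 transcription factors of the cellular stress response, Atf4 and Ddit3. They were chosen by identifier, by a rule that uses no measured value but was set with earlier results of these data known, and are 5 of the 30452 genes listed for rat BMSCs (bone marrow mesenchymal stromal cells), which adhere in culture and can form bone, cartilage and fat. All 6 libraries are labelled wild type and came from in vitro osteogenic differentiation experiments. Control cells were left blank (n = 3) and the hydrogel group was co-cultured with AAT-ZCG (n = 3), a hydrogel with linked enzyme that was made for diabetic bone defects. The labels give no hydrogel dose, culture time, passage, donor animal or meaning of the abbreviation. They also do not say that the 3 libraries of a group came from separate cultures, so p-values measure only the spread between these libraries, which may be technical. The cell type could not be checked against its markers, because the deposited tables list Ensembl identifiers alone and the gene table used here pairs none of them with a symbol.

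Secreted proteins such as collagen fold in the ER before they leave the cell, and matrix-producing cells carry a heavy folding load. When unfolded protein accumulates there, the unfolded protein response is switched on: the sensors ATF6 and IRE1 raise transcription of chaperones, and the sensor PERK slows protein synthesis while favouring translation of Atf4, which in turn can induce Ddit3. The same Atf4 arm also answers to amino acid shortage, haem shortage and oxidative stress. Hspa5 encodes BiP, the main ER chaperone of the Hsp70 family and a restraint on the sensors. Calr encodes calreticulin, a calcium-binding chaperone of glycoproteins. P4hb encodes protein disulfide isomerase, which forms disulfide bonds and is also the beta subunit of the collagen prolyl hydroxylase. Ddit3 encodes CHOP, a partner of C/EBP factors linked to growth arrest and cell death under lasting stress.

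The promoters of the 3 folding proteins are shown, as the larger group of genes that moved together, as described further on. Those of Atf4 and Ddit3, which both moved the other way, were searched alike but are not printed. No link between a motif and a direction was tested. The sequences are the 250 bases before the annotated gene start, 5′ to 3′ on the gene's strand, from RefSeq (rat build GRCr8), matched by symbol for 5 of 5 genes. The windows printed are chr3:38452766-38453015 on the plus strand for Hspa5, chr19:40213117-40213366 on the plus strand for Calr and chr10:106346912-106347161 on the minus strand for P4hb. Capitals mark CCAAT on either strand (ATTGG where it lies on the other strand), the letters recognised by the factor NF-Y. They also mark the whole of any exact match to the ER stress response element (ERSE).
Hspa5: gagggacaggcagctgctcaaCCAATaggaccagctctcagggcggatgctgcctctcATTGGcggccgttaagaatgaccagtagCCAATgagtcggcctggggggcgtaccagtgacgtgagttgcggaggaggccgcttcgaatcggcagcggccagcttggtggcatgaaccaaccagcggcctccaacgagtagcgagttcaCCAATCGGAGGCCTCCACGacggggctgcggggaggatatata
Calr: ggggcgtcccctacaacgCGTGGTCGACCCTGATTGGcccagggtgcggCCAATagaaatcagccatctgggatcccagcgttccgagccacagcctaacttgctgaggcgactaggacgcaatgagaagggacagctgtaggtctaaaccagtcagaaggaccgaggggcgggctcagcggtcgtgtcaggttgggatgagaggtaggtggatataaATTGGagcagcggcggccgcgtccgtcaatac
P4hb: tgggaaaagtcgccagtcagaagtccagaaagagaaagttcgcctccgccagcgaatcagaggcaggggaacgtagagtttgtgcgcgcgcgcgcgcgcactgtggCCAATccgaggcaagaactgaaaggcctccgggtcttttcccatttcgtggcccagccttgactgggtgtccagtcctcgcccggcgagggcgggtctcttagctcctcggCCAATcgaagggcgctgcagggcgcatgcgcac

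The ERSE was searched as CCAAT followed by 9 bases of any kind and then CCACG, on both strands, over 300 bases from 250 before to 50 after the gene start. It is the element through which NF-Y and ATF6 are known to act on ER chaperone genes, and it contains the CCAAT box. Of 33469 RefSeq promoter windows, 22 (0.0657%) held an exact match, and Hspa5 and Calr were among them. Since the element is known from ER chaperone genes, a match in Hspa5 and Calr is background, and no enrichment was tested. Written in the orientation of the motif, with the fixed letters in capitals, the matches read as follows.
Hspa5 ERSE: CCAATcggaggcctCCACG
Calr ERSE: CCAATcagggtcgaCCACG
The Hspa5 match lay on the gene's strand, 43 to 25 bases before the start, and the Calr match on the other strand, 232 to 214 bases before it. P4hb had no exact ERSE match and 2 CCAAT boxes, Ddit3 had 1 CCAAT box and no exact ERSE match, and Atf4 had neither. The search allowed no mismatch. On the strand of the Ddit3 box, CCAAT is followed by 9 bases and then GCACG, 1 letter from CCACG. Near matches of this kind were not counted in any window. A CCAAT box alone is common, present in 37.5% of all windows. A second form of the element, ATTGG followed by 1 base and then CCACG, was in 0.0508% of windows and in none of the 5, and the core of the C/EBP-ATF element, TGATG followed by 1 base and then AA, was in 3.98% and in none of the 5. A match describes the letters only. A missing match says nothing about elements outside this window or about variants of these letters inside it.

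**Figure D1:**
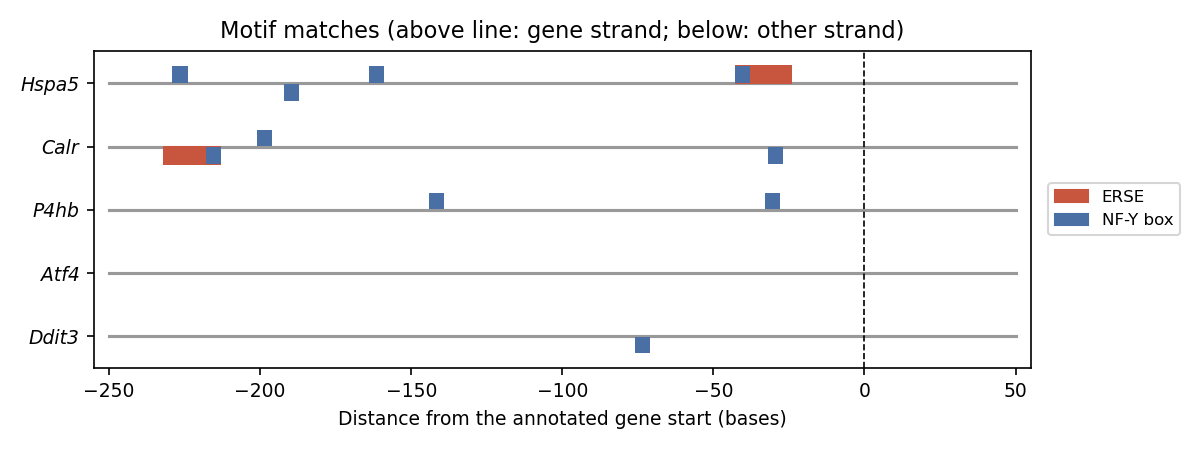
Positions of ERSE matches (red) and of NF-Y boxes (blue) in the promoter windows of the 5 genes, in bases from the annotated gene start (dashed line), with matches on the gene's strand drawn above each line and those on the other strand below it. Hspa5 carries an exact ERSE match close to the start and Calr carries one near the far end of the window. P4hb, Atf4 and Ddit3 show no exact match.

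Gene lengths implied by counts, FPKM and library totals were 2587 bp for Hspa5 (ENSRNOG00000018294), 1808 bp for Calr (ENSRNOG00000003029), 3123 bp for P4hb (ENSRNOG00000036689), 1478 bp for Atf4 (ENSRNOG00000017801) and 863 bp for Ddit3 (ENSRNOG00000006789). Each length was the same in all 6 libraries, with a relative difference of 6.06e-11 at most, so counts and FPKM of these rows hold the same reads. A length does not settle a name: between 3 (Ddit3) and 10 (Atf4) of the 21162 genes with an implied length have the length of a given member, itself included. The symbols are those supplied with the list of identifiers. No annotation of the build behind the counts was used here, and whether any of the 5 shares reads with a related copy or an overlapping gene was not tested.

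Library totals ranged from 30601703 to 93728651 counts, with the deepest library of each group numbered 2. All 5 genes passed the low-count filter, which kept 14715 genes. The smallest count of a member in any library was 2393 (Ddit3, control 1), where the 95% exact Poisson interval spans 4.03% on either side, and for the 3 folding proteins it was 1.18% or less. These intervals cover counting error only.

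The 3 folding proteins were lower in cultures with hydrogel and both transcription factors were higher, and 0 of the 5 changed by 2-fold or more, against 5.73% of all tested genes called past 2-fold. Calr fell by 23.6%, Hspa5 fell by 17.9% and P4hb fell by 10.1%, while Atf4 rose by 11.2% and Ddit3 by 17.1% (fitted fold changes, 3 against 3 libraries). All 5 passed an adjusted p under 0.05 in edgeR's quasi-likelihood test with Benjamini-Hochberg adjustment over all genes, 3 of them lower and 2 higher. Of all 14715 genes tested, 34.5% passed, 17.1% lower and 17.5% higher. The share called also varied with abundance, here in CPM, the counts scaled by library size. Of the 88 genes with a mean of 1000 CPM or more, the class of the 3 folding proteins, 34.1% were called lower. Of those at 100 to under 1000 CPM, the class of Atf4, 28.8% were called higher, and of those at 10 to under 100 CPM, the class of Ddit3, 17.4% were called higher. The median absolute log2 fold change was 0.23 over the 5 genes and 0.21 over all tested genes. Between 27.9% (Calr) and 60.9% (Atf4) of all tested genes had a larger absolute fold change than a given member. In whole cultures, fewer cells of a type and less RNA per cell cannot be told apart.

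**Figure D2:**
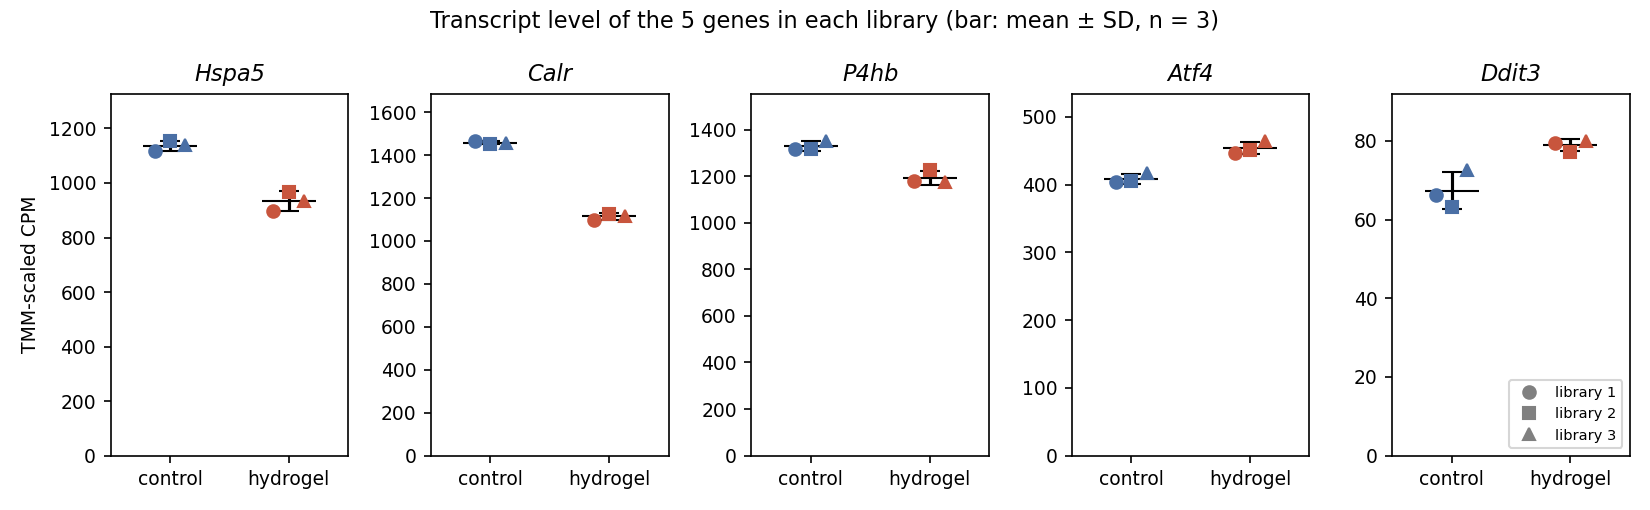
TMM-scaled CPM (y axis, from 0) of each gene in each library, with blue for control and red for hydrogel, the symbol shape for the library number, and a bar for the mean ± SD (n = 3). The hydrogel libraries lie below all control libraries for Hspa5, Calr and P4hb and above all of them for Atf4 and Ddit3.

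Calr was at 1467, 1451 and 1455 CPM in control libraries 1, 2 and 3, and at 1098, 1127 and 1118 CPM in hydrogel libraries 1, 2 and 3. The values within a group lay close together and the groups were far apart, the highest hydrogel library being 22.4% below the lowest control. The mean went from 1458 ± 8.17 to 1114 ± 14.6 CPM (SD, n = 3), -0.39 in log2 fold change with SE 0.037 (adjusted p = 7.71e-07, edgeR). Of the 5 genes Calr had the largest difference.

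Hspa5 was at 1119, 1155 and 1138 CPM in the controls and at 896, 969 and 935 CPM with hydrogel. The groups did not overlap, with a gap of 13.4% between the nearest libraries, and hydrogel library 1 was the lowest of the 6. The mean went from 1137 ± 18.2 to 933 ± 36.4 CPM (SD, n = 3), -0.29 in log2 fold change with SE 0.041 (adjusted p = 5.42e-05, edgeR). The spread between hydrogel libraries, a coefficient of variation of 3.90%, exceeded that of the other 4 genes under hydrogel, and was 1.60% in controls; the difference in spread was not tested.

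P4hb was at 1316, 1315 and 1352 CPM in the controls and at 1179, 1227 and 1174 CPM with hydrogel. Its groups were also apart, but by 6.68% between the nearest libraries, control 2 and hydrogel 2. The mean went from 1328 ± 20.9 to 1193 ± 29.5 CPM (SD, n = 3), -0.15 in log2 fold change with SE 0.038 (adjusted p = 5.18e-03, edgeR). Hydrogel library 2, the deepest of its group, was the hydrogel library nearest to the controls for all 3 folding proteins. Together the 3 genes took 0.395 to 0.397% of all counts in the control libraries and 0.315 to 0.328% in the hydrogel libraries.

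Atf4 was at 403, 406 and 417 CPM in the controls and at 447, 451 and 465 CPM with hydrogel. Every hydrogel library was above every control, with 7.31% between the nearest. The mean went from 409 ± 7.07 to 454 ± 9.35 CPM (SD, n = 3), 0.15 in log2 fold change with SE 0.041 (adjusted p = 8.48e-03, edgeR). The protein level of Atf4 is set largely at translation, which transcript counts do not measure.

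Ddit3 was at 66.2, 63.3 and 72.7 CPM in the controls and at 79.4, 77.1 and 80.0 CPM with hydrogel. The groups were 6.08% apart at the nearest libraries, control 3 and hydrogel 2, with control 3 standing above the other controls. The mean went from 67.4 ± 4.82 to 78.9 ± 1.54 CPM (SD, n = 3), 0.23 in log2 fold change with SE 0.057 (adjusted p = 5.02e-03, edgeR). Its coefficient of variation in controls was 7.15%, the largest of the 5 genes in either group. With libraries 1 and 3 of each group alone, which leaves out both deep libraries, the rises of Atf4 and Ddit3 kept their direction but not their call, at log2 fold changes of 0.15 (edgeR adjusted p = 0.0759) and 0.20 (edgeR adjusted p = 0.0720). That fit has 2 libraries a group. The falls of Hspa5, Calr and P4hb stayed called in it, at -0.30, -0.40 and -0.18. Between the deep libraries themselves, 1 per group and so without a test, the log2 difference was -0.25 for Hspa5, -0.37 for Calr, -0.10 for P4hb, 0.15 for Atf4 and 0.29 for Ddit3.

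All 5 directions were the same whether libraries were scaled by TMM, by RLE size factors, by the upper quartile or by their totals alone. Under TMM the tested genes had a median log2 fold change of 0.0021, which the scaling itself brings near 0. All of these scalings are relative, so a change in total RNA would not show in them. Non-overlap of the groups was itself frequent, found for 47.3% of all tested genes in CPM.

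**Figure D3:**
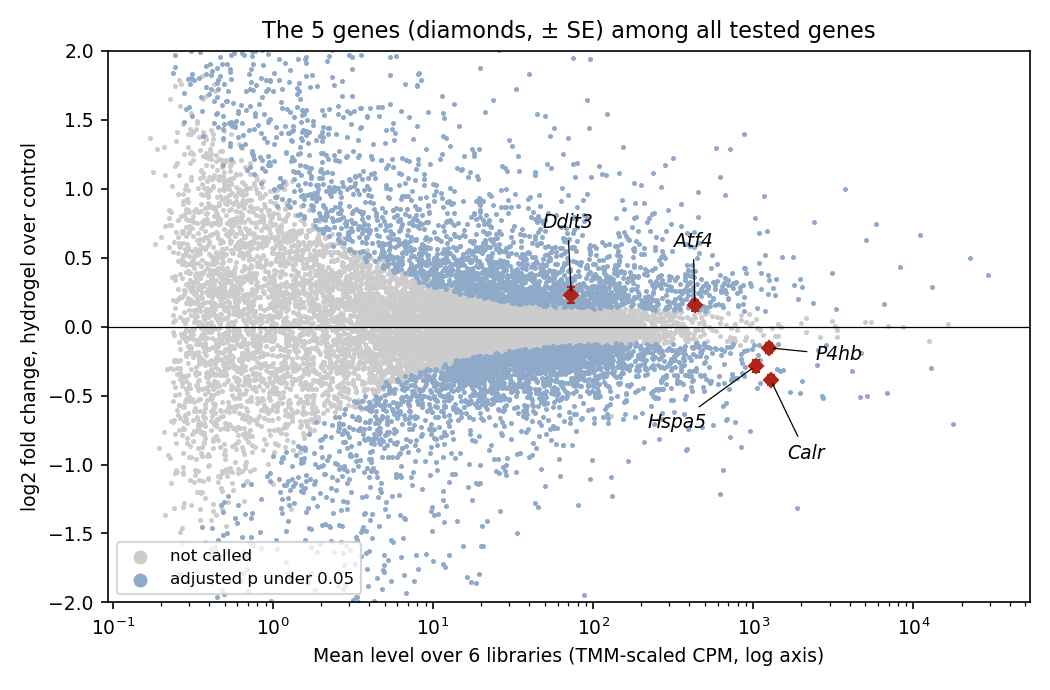
Log2 fold change of hydrogel over control (y axis) against mean TMM-scaled CPM (x axis, log scale) for the tested genes, with called genes in blue, others in grey and the 5 genes as red diamonds with their SE; 148 genes beyond 2 log2 units are outside the plotted range. The 3 folding proteins sit together at high abundance below 0 and both transcription factors sit above 0, all within the bulk of called genes.

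Levels can be compared between genes only per length, in FPKM. In controls the order was Calr at 813 ± 10.2, Hspa5 at 443 ± 5.17, P4hb at 429 ± 5.14, Atf4 at 279 ± 3.38 and Ddit3 at 78.8 ± 5.37 FPKM (SD, n = 3). With hydrogel it was Calr at 611 ± 5.98, P4hb at 378 ± 8.09, Hspa5 at 357 ± 12.6, Atf4 at 304 ± 6.33 and Ddit3 at 90.5 ± 2.05 FPKM (SD, n = 3). Hspa5 and P4hb, the close neighbours in this order, changed places in FPKM, where the order depends on the implied lengths. By mean FPKM over the 6 libraries the 5 genes ranked from 58 (Calr) to 676 (Ddit3) among the 14715 tested.

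The ratio of a pair of genes within a library does not depend on how the libraries are scaled, and asks whether both changed by the same amount. All 10 pairs were compared by exact two-sided permutation tests, where 3 against 3 libraries cannot give a p below 0.1. No pair could therefore reach 0.05. The FPKM ratio of Hspa5 to P4hb was 1.03, 1.06 and 1.02 in control libraries 1, 2 and 3 and 0.918, 0.953 and 0.962 in the hydrogel libraries, so that Hspa5 was above P4hb in 3 of 3 controls and below it in 3 of 3 hydrogel libraries. This crossing rests on the implied lengths of 2587 and 3123 bp, which were not checked against an annotation. In CPM, Hspa5 was below P4hb in every library. Only the shift of the ratio between the groups does not depend on length. The log2 ratio differed by -0.13 (SE 0.028, exact permutation p = 0.1, 0.111 after Benjamini-Hochberg adjustment over 10 pairs). The ratio of Calr to P4hb went from 1.86 to 1.93 in controls to 1.59 to 1.65 with hydrogel, a log2 difference of -0.23 (SE 0.021, exact permutation p = 0.1, adjusted 0.111). Hspa5 to Calr moved the other way, from 0.533 to 0.556 in controls to 0.570 to 0.601 with hydrogel, a log2 difference of 0.10 (SE 0.028, exact permutation p = 0.1, adjusted 0.111). These ratios restate the differences between the fitted fold changes above, with Calr lowest, then Hspa5, then P4hb, and an order among the 3 falls could not pass the test.

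The widest shifts were between a folding protein and a transcription factor, which moved in opposite directions, so these ratios add no separate support. The ratio of Calr to Ddit3 was 9.56 to 10.9 in controls and 6.60 to 6.97 with hydrogel, a log2 difference of -0.62 (SE 0.064, exact permutation p = 0.1, adjusted 0.111). Calr to Atf4 went from 2.86 to 2.97 in controls to 1.97 to 2.04 with hydrogel, a log2 difference of -0.54 (SE 0.023, exact permutation p = 0.1, adjusted 0.111). Over the 6 pairs of this kind the log2 differences ran from -0.62 to -0.31; that their groups did not overlap follows from the values of the single genes. The ratio of Atf4 to Ddit3 was 3.35 to 3.74 in controls and 3.29 to 3.41 with hydrogel, with overlapping groups. Its log2 difference was -0.08 (SE 0.050, exact permutation p = 0.3, adjusted 0.3), which does not show that both rose equally. It was -0.04 without control 2 and -0.12 without control 3.

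**Figure D4:**
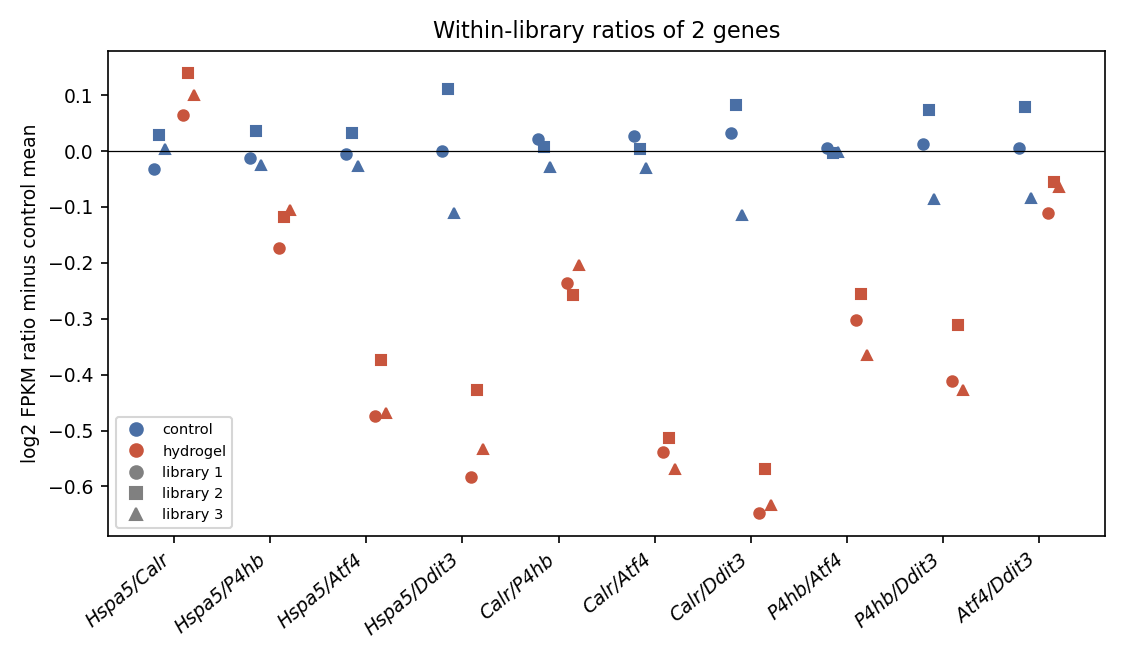
Log2 FPKM ratio of each pair of genes in each library, minus the mean of the controls (y axis), with blue for control, red for hydrogel and the symbol shape for the library number. The shift from controls is upward for Hspa5/Calr, downward and widest for pairs of a folding protein and a transcription factor, and within overlapping values for Atf4/Ddit3.

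Other genes had profiles like those of the 5 genes, in numbers that differed between the members. Likeness was measured as the root-mean-square difference of log2 CPM over the 6 libraries, each gene centred on its own mean, among 8731 other genes at 10 CPM or more. Within 0.05 lay 568 genes for P4hb, 382 for Atf4, 299 for Hspa5, 121 for Calr and 53 for Ddit3. The closest falling genes were ENSRNOG00000004165, at 0.010 from Hspa5 (Pearson r = 0.998 over 6 libraries), and ENSRNOG00000004291, at 0.011 from P4hb (r = 0.991). The former averaged only 14.3 CPM, where counting error is larger than for Hspa5. Genes named here were picked for the smallest distance among 8731, so a high r follows from the choice. The closest rising genes were ENSRNOG00000020646 and ENSRNOG00000017817, at 0.012 and 0.013 from Atf4 (r = 0.990 and 0.987). All share the same libraries and group difference, so these values are a description of pattern alone.

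**Figure D5:**
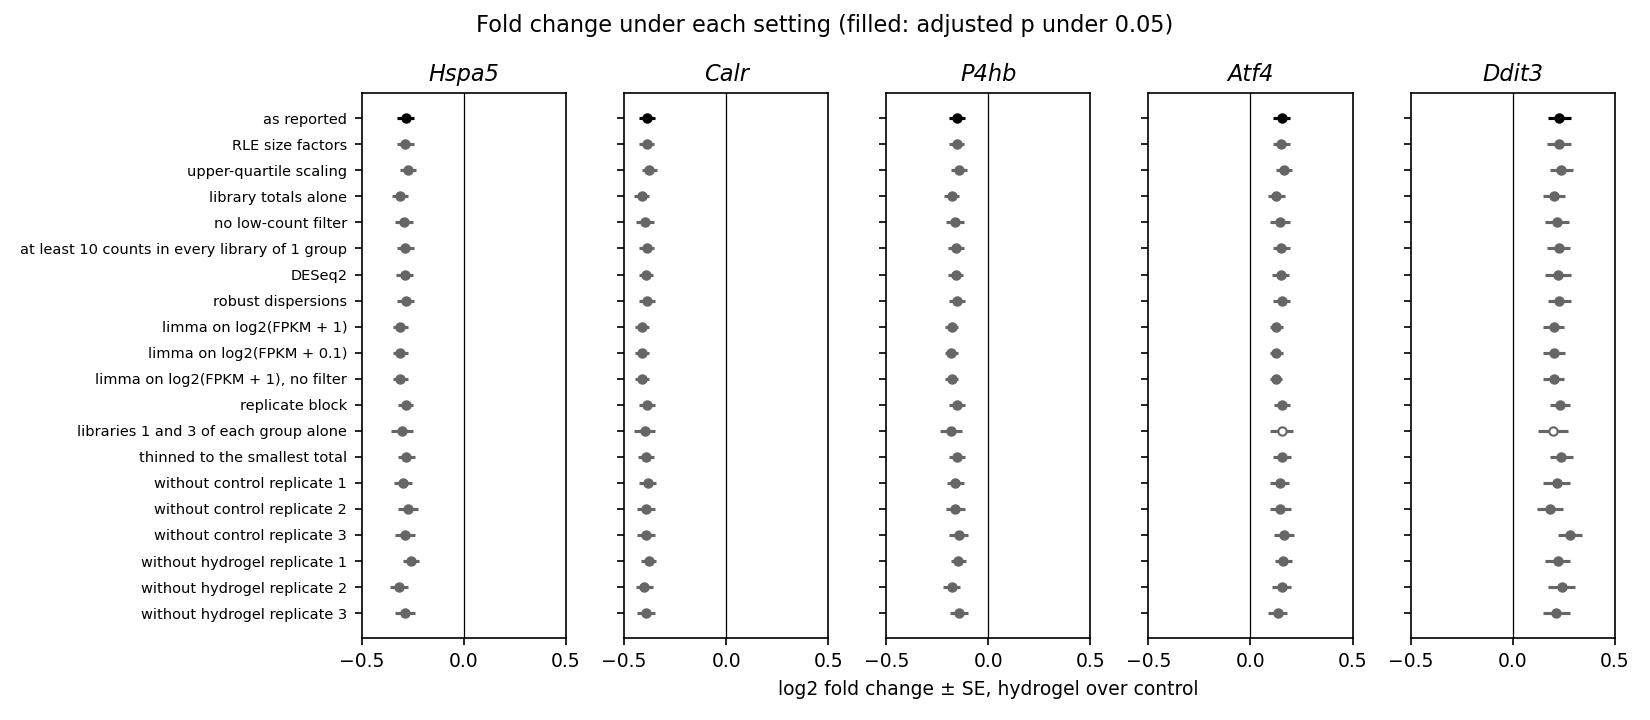
Log2 fold change ± SE of each gene (x axis) as reported and under 19 other settings (rows), with filled points where the adjusted p was under 0.05 and open points where it was not. All points keep the side of 0 of the reported value, and the open points are Atf4 and Ddit3 with libraries 1 and 3 of each group alone.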

How the data were processed

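Raw counts per gene for the 6 libraries, in 1 table, and 1 FPKM file for each library were deposited by the authors. The FPKM values the authors deposited equal those counts divided by gene length and library total. Per the labels' protocols, TRIzol was used for RNA extraction and the VAHTS Universal V6 kit for library construction; aligner, counter and strandedness are not given in the sources used here. GRCm38 and mm10, both mouse builds, are named in the submitters' processing notes, while the identifiers carry the rat prefix ENSRNOG.

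Counts were tested with edgeR 4.0.16 (R 4.3.3): filterByExpr, TMM, quasi-likelihood F test with group as the term, Benjamini-Hochberg adjustment over 14715 genes, called at an adjusted p under 0.05. Each standard error is the absolute log2 fold change over the square root of F. The test was also run on simulated data, where the planted changes were larger than those of the 5 genes. That check therefore does not cover changes of their size. Permutation tests used SciPy 1.17.1. Likeness used log2 CPM with a prior count of 2. Alternatives were DESeq2 1.42.0, limma 3.58.1 on log2 FPKM, other scalings and filters, robust dispersions, thinning, a replicate block and left-out libraries. The members and lists were chosen with earlier results of these data known. Named genes are the 5 members and, by likeness, 2 rising and 2 falling identifiers. Lists of other pathway genes and cell type markers need symbols and were not analysed here. No label ties libraries of the same number, so the comparison was unpaired. Over all tested genes, deviations from the group mean correlated between libraries of the same number at 0.022, 0.051 and 0.013. Between libraries of different numbers the correlations were lower, from -0.032 to 0.005. By these deviations, Hspa5, Atf4 and Ddit3 had the same order of library numbers in both groups, and Calr and P4hb did not. Whether the numbers mark something shared was not tested.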

Additional observations from a re-analysis of the deposited data

How the results depend on the processing

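All 95 alternative values of the 5 log2 fold changes kept their direction, and 93 kept their call. The exceptions came with libraries 1 and 3 of each group alone: Atf4 at 0.15 (edgeR adjusted p = 0.0759) and Ddit3 at 0.20 (edgeR adjusted p = 0.0720), so that 0 members were called higher by edgeR in place of 2, with both at an unadjusted p under 0.05 (0.0206 and 0.0192). In the settings that kept all 6 libraries, the adjusted p ran from 1.40e-03 to 0.0321 for Atf4 and from 1.51e-03 to 0.0476 for Ddit3. Leaving out 1 library gave log2 fold changes from -0.32 to -0.26 for Hspa5, -0.40 to -0.38 for Calr, -0.18 to -0.14 for P4hb, 0.13 to 0.16 for Atf4 and 0.18 to 0.28 for Ddit3, all called, with the highest adjusted p at 0.0477 (Ddit3 without control 2). Fitted with a replicate block on sample number, the values were -0.29, -0.39, -0.15, 0.15 and 0.23 in the same order, and no member's call changed. Of the 76 counts of called genes, 74 stayed within 1.5 times; limma on log2(FPKM + 1) without a filter called 1708 genes higher against 2570, and the cause was not tested. All 70 alternative values of the pair ratios moved by less than 1 SD between replicates. The Atf4 to Ddit3 difference of -0.08 nevertheless ran from -0.12 (without control 3) to -0.04 (without control 2). With 3 libraries a group, no exact permutation test can go below 0.1.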

Other observations

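The 22 RefSeq promoter windows with an ERSE match belonged, besides Hspa5 and Calr, to genes of various kinds, and no enrichment was tested. Several are known from ER folding and its stress response, a grouping made after the matches were seen and not meant as complete. They include Canx (calnexin, the membrane-bound partner of calreticulin), Hsp90b1 (the ER member of the Hsp90 family) and Dnajc3 (a co-chaperone of Hspa5). Also among them are Creld2 (an ER-resident protein induced by ER stress) and Ero1b (an oxidase that recharges protein disulfide isomerases). So are Derl3 (a component of ER-associated degradation) and Xbp1 (a transcription factor of the unfolded protein response). Calr4, by its symbol a relative of Calr, held a match too. The remaining windows were those of Ankmy2 (listed with 2 windows), Birc5, Foxd4, Hnrnpa3, Pan2, Ppm1l, Zfand2a, Zfp57 and 3 loci with LOC symbols. Transcript levels of these genes were not analysed here, since their symbols could not be paired with identifiers of the count table.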
